A study of Rattus norvegicus with 21 samples.

Results

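The genes described here encode protein components of plasma lipoproteins and the factor that loads lipid onto them, and their mRNA levels were followed in rat liver after early weaning. The members were found by gene symbol, from a list of 10 genes: the apolipoprotein genes Apoa1, Apoa2, Apoa4, Apoa5, Apob, Apoc1, Apoc3, Apoe and Apom, and Mttp. In both expression tables, which listed 32623 genes each, 9 of the 10 had a row of their own. No row carried the symbol Apoc1, and that gene was not analysed here. All 9 genes passed the filter on low counts in both tables, among 15416 genes tested in Wistar rats and 15019 in Sprague Dawley rats.

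RNA sequencing of liver gave 21 libraries in 7 groups of 3. Wistar rats were sampled on day 23 of age as controls and early weaned animals, and on day 63 as controls and early weaned animals. Sprague Dawley rats were sampled on day 211 as controls, as early weaned animals, and as early weaned animals that drank water with 1.5% leucine. The study title asks about fatty acid oxidation, cholesterol metabolism and obesity in adulthood after early weaning, and about leucine as a supplement. No genetic alteration is stated for any group, and the labels give neither the age at weaning nor the timing of leucine. Strain, the oldest age and the table form a single split and cannot be told apart, so no test was made between Wistar and Sprague Dawley rats. The labels do not say that the libraries of a group came from separate animals, so the p-values measure only the spread between these samples, which may be technical.

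Lipoproteins carry water-insoluble lipid in blood. In hepatocytes the microsomal triglyceride transfer protein, encoded by Mttp, moves lipid onto the large structural protein apolipoprotein B while it enters the endoplasmic reticulum, and the particle leaves the cell as very low density lipoprotein (VLDL). The small exchangeable apolipoproteins move between particles: apolipoprotein A-I is the main protein of high density lipoprotein, apolipoprotein C-III inhibits triglyceride clearance, apolipoprotein A-V promotes it, and apolipoprotein E is a ligand for receptors that take up remnant particles.

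Total counts per library ranged from 52054644 to 75118153. One library stood apart: replicate 3 of the day 23 Wistar controls had a mean correlation of log2 expression of 0.895 with its own group and 0.898 with the other Wistar groups, whereas every other library of both tables correlated more with its own group than with the others. Its summed FPKM (fragments scaled to transcript length and library size) was 120 over 16 circadian clock genes, against 327 and 258 in the other day 23 controls, and its summed FPKM over 9 hepatocyte markers was 113825, against 73486 and 75297. The comparisons between the ages in controls, between weaning groups on day 23, and of the weaning effect between the ages rest on this library, and the values of the 9 genes without it are given beside them. The hepatocyte markers, Alb and Ttr among them, were read in every library. The intestine also expresses Apoa4, Apob and Mttp. Of 6 gut enterocyte markers 5 were in the tables, and their summed FPKM was 0.0 to 8.85 over all libraries. Among them Si and Alpi were at 0 in every group, and Lct in all but the early weaned and leucine groups of day 211. The sum over 5 adipocyte markers was 16.3 to 49.5, with Plin1 and Lep at 0 in every group and Adipoq in all but the leucine group. In bulk tissue, fewer cells of a type and less RNA per cell cannot be told apart.

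Apoa1, Apoc3, Apoa4 and Apoa5 lay in this order on chromosome 8 within 36646 bp (50525091 to 50561736 in the deposited tables, whose rat build is not named). Apoc3 was on the minus strand and the other 3 genes on the plus strand, and the start of Apoc3 lay 5511 bp from the start of Apoa4. Apoe lay on chromosome 1, beside Apoc4 and Apoc2, Apoa2 on chromosome 13, Apob on chromosome 6, Apom on chromosome 20 and Mttp on chromosome 2. The chromosome 8 neighbours Apoa4 and Apoa5 had fold changes of opposite sign between the ages, so the 250 bases before the first annotated start of each are printed (RefSeq, build GRCr8, plus strand, chr8:55435529-55435778 for Apoa4 and chr8:55457621-55457870 for Apoa5, 5′ to 3′). Capitals mark motif matches.
Apoa4: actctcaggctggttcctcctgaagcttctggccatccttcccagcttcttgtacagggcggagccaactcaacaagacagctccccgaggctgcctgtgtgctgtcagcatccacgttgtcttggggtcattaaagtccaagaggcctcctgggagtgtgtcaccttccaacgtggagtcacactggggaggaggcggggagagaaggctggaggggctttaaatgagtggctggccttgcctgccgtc
Apoa5: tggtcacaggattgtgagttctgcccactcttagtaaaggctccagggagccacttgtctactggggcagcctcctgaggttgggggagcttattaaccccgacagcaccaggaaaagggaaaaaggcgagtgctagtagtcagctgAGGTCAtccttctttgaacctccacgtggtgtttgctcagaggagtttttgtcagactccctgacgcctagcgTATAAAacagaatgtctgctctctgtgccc
In the Apoa5 sequence the first capitals are the nuclear receptor half-site AGGTCA, which began 103 bases before the start site, and the second are the TATA box letters TATAAA, which began 30 bases before it. The other motifs searched, 6 in all and on both strands, were the HNF4 motif CAAAGTCCA, the sterol regulatory element TCACNCCAC, the HNF1 motif, and the D-box TTATGTAA. None of the 6 was found in the Apoa4 window. Among 33469 RefSeq promoter windows of 300 bases, 16.2% held AGGTCA, 14.2% TATAAA, 1.12% the sterol regulatory element, 0.893% the D-box, 0.391% the HNF4 motif and 0.00299% the HNF1 motif. RefSeq gives Apoa5 a second start downstream of the first. Its window held the sterol regulatory element on the minus strand, which began 112 bases before that start, and TATAAA, which began 184 bases before it. A match describes the letters only. RefSeq windows were at hand for 5 of the 10 genes, namely Apoa4, Apoa5, Apoc1, Apoe and Apom.

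Apoe was the most abundant of the 9 transcripts per unit length in every group, and ranked between 4 and 12 among all genes by FPKM in single libraries. Its FPKM ranged from 7860.3 to 14137 over all libraries. Apoa1 ranged from 1876 to 8223 and Apoc3 from 1653 to 5789. Mttp, which encodes a transfer protein that stays in the cell, was the least abundant, at 18.1 to 77.5 FPKM and rank 785 to 2699. The 9 genes together held 3.19% ± 0.587 (SD, n = 3) of summed FPKM in day 23 controls (2.81%, 2.90% and 3.87%, the last in replicate 3), 2.43% ± 0.0643 in early weaned rats of that day, 3.48% ± 0.322 and 3.34% ± 0.129 in controls and early weaned rats of day 63, and 4.40% ± 0.350, 3.76% ± 0.117 and 3.97% ± 0.431 in control, early weaned and leucine groups of day 211.

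**Figure D1:**
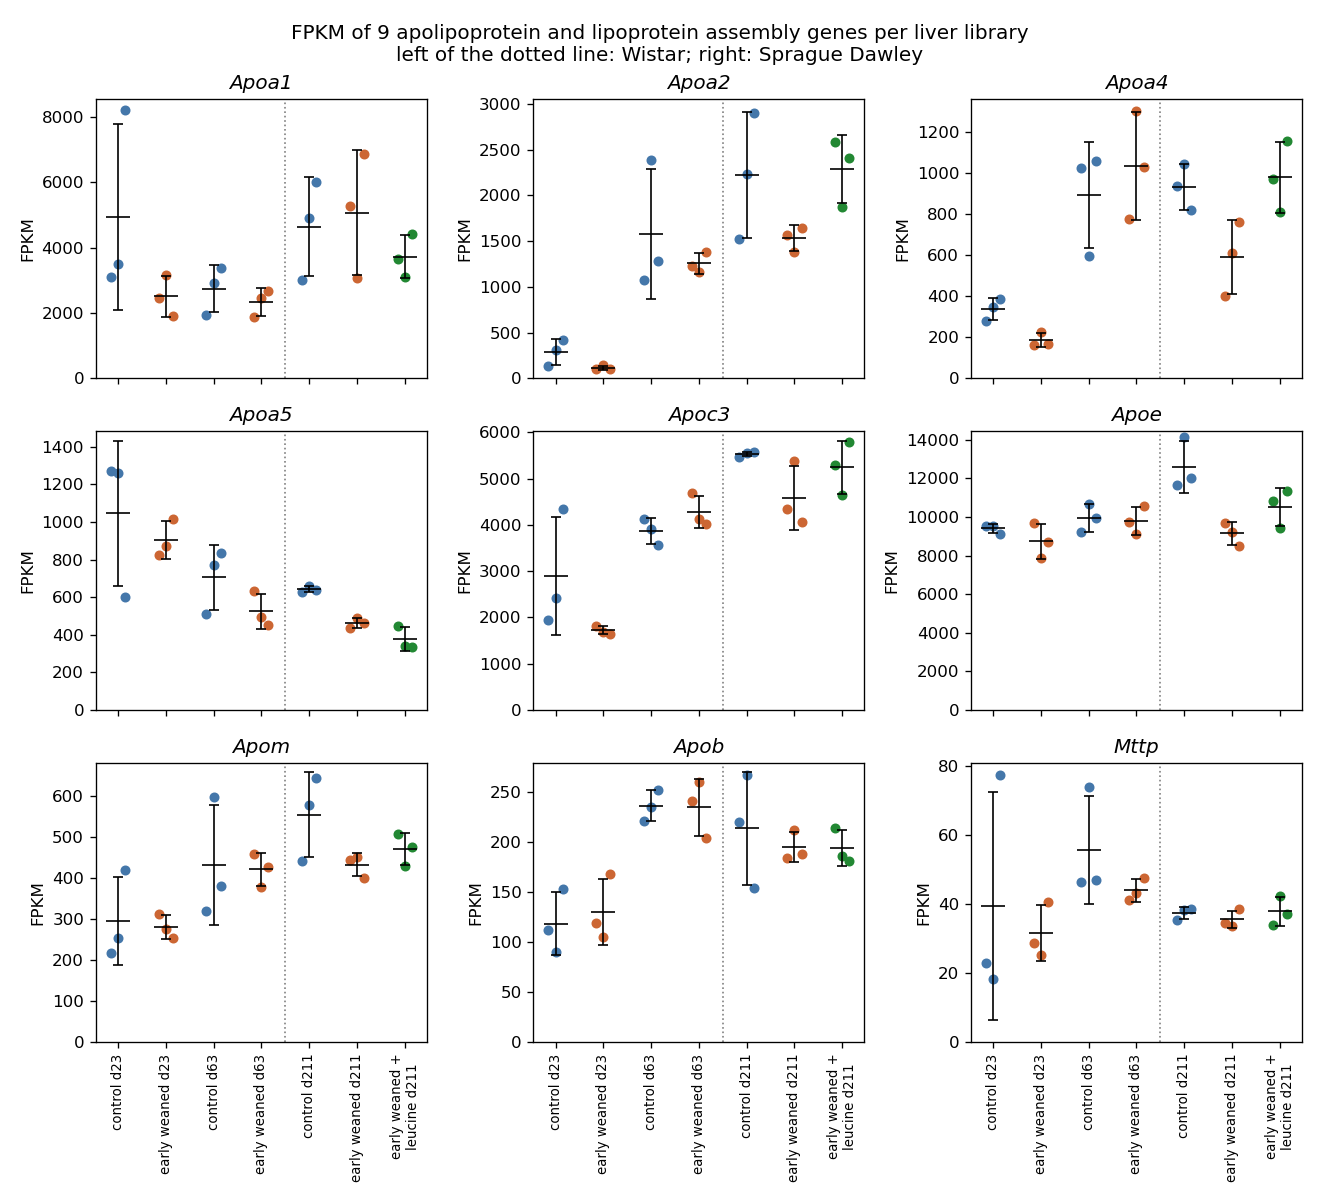
Each panel plots the FPKM of 1 gene in every library (points) with the group mean and SD (bars, n = 3), for controls (blue), early weaned rats (orange) and early weaned rats given leucine (green). Apoa2 and Apoa4 sit low in both day 23 groups, and the day 23 control replicate 3 stands apart for Apoa1 (8223), Apoa5 (603) and Mttp (77.5).

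Between day 23 and day 63, Apoa2, Apoa4 and Apob rose in Wistar livers of both weaning groups, and Apoc3 rose in the early weaned groups. Apoa2, which encodes a second protein of high density lipoprotein, moved farthest, 5.53-fold in controls and 11.7-fold after early weaning. In controls 3 of 9 genes were called at an adjusted p below 0.05, all higher, against 17.6% of all genes tested in either direction and 7.97% higher. In early weaned rats 4 of 9 were called, all higher, against 27% of all genes in either direction and 13.5% higher. DESeq2 called 3 of 9 in controls, against 27.1% of all genes, and 6 of 9 in early weaned rats, against 35.3%. In controls 3 of 9 genes were higher on day 63 without overlap, against 16.7% of all genes, and in early weaned rats 6 were higher and 1 lower without overlap, against 21.3% and 31%. The median log2 fold change of the 9 genes was 0.50 in controls and 0.71 in early weaned rats, beside -0.038 and -0.020 over all genes tested.

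Apoa2 had 138, 313 and 414 FPKM in day 23 controls and 1075, 2391 and 1277 in day 63 controls. In early weaned rats it had 106, 142 and 104 FPKM on day 23 and 1228, 1159 and 1385 on day 63. Every day 63 library lay above every day 23 library in both weaning groups. The log2 fold change between ages was 2.47 ± 0.40 (SE; edgeR adjusted p = 0.00528) in controls and 3.54 ± 0.42 (adjusted p = 0.000900) in early weaned rats.

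Apoa4, which encodes a lipoprotein protein made in liver and gut, had 280.5, 346 and 386 FPKM in day 23 controls and 1028, 596 and 1059 in day 63 controls. Early weaned rats had 164, 226 and 169 FPKM on day 23 and 776, 1304 and 1029.6 on day 63. The ages did not overlap in either weaning group. The log2 fold change was 1.41 ± 0.27 (edgeR adjusted p = 0.0101; 2.66-fold) in controls and 2.60 ± 0.28 (adjusted p = 0.000678; 6.05-fold) in early weaned rats.

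Apob, the structural protein gene, had 112, 90.3 and 153 FPKM in day 23 controls and 222, 236 and 253 in day 63 controls, again without overlap. Early weaned rats had 119, 105 and 168 FPKM on day 23 and 241, 260.2 and 204 on day 63. The change was close in both, with log2 fold changes of 1.00 ± 0.22 (edgeR adjusted p = 0.0170) and 0.98 ± 0.22 (adjusted p = 0.0118). In controls the Apob call was lost without replicate 1 or 2 of day 23 (adjusted p = 0.0678 and 0.0628, with 4.08% and 4.7% of all genes called) or replicate 3 of day 63 (0.0514, with 6.02% called).

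Apoc3 had 1822, 1691 and 1653 FPKM in early weaned rats of day 23 and 4683, 4129 and 4024 in those of day 63, a log2 fold change of 1.43 ± 0.25 (edgeR adjusted p = 0.00466; 2.70-fold). In controls the values were 1936, 2417 and 4345 on day 23 and 4122, 3904 and 3573 on day 63. The control ages overlapped through replicate 3 of day 23, which was the highest of the 6 libraries, and the log2 fold change was 0.42 ± 0.25 (adjusted p = 0.251). Apoe, by contrast in its levels, had 9554, 9538 and 9117 FPKM in day 23 controls and 9227, 10692 and 9955 in day 63 controls, with a log2 fold change of 0.088 ± 0.14 (adjusted p = 0.678).

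Apoa5 was the gene with the opposite sign in both weaning groups, without passing the test. It had 1274, 1259 and 603 FPKM in day 23 controls and 511, 769 and 837 in day 63 controls (log2 fold change -0.56 ± 0.28; edgeR adjusted p = 0.179). In early weaned rats all 3 day 23 libraries, at 825, 874 and 1018, lay above all 3 day 63 libraries, at 631, 494 and 449.9 (log2 fold change -0.67 ± 0.28; adjusted p = 0.0987). Apoa1 had log2 fold changes of -0.84 in controls (adjusted p = 0.134) and 0.022 in early weaned rats (adjusted p = 0.971), the latter at -0.084 on the FPKM scale. Apom, which encodes a lipocalin of high density lipoprotein that carries sphingosine-1-phosphate, and Mttp had log2 fold changes between 0.50 and 0.71 with adjusted p from 0.0775 to 0.469.

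**Figure D2:**
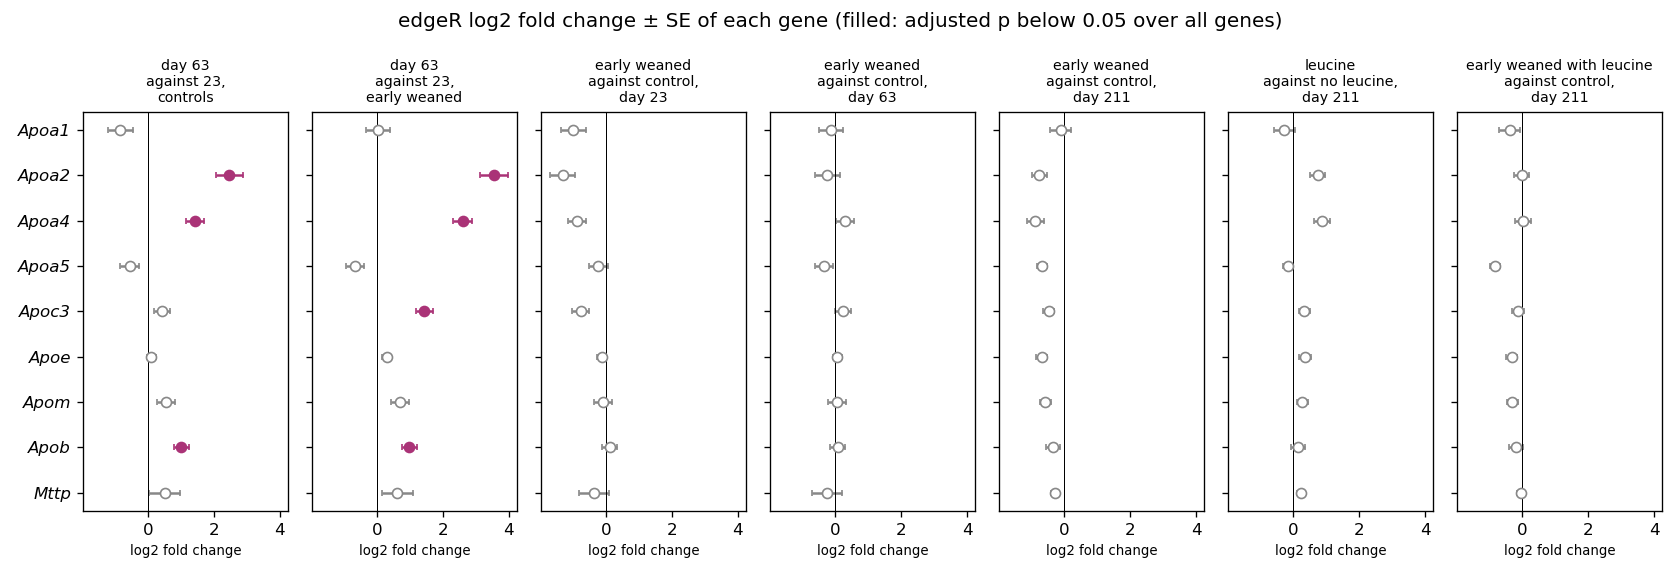
Points show the edgeR log2 fold change of each gene (x axis) with its SE, in 7 comparisons, and are filled where the adjusted p over all genes was below 0.05. Filled points appear only in the comparisons of day 63 with day 23, for Apoa2, Apoa4 and Apob in controls and also Apoc3 in early weaned rats.

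Without the day 23 control that stood apart, 7 of 9 genes were called between the ages in controls, against 37.9% of all genes, where 3 had been called with it. The 4 added calls were Mttp, Apoc3 and Apom, which were higher on day 63, and Apoa5, which was lower. Mttp had 22.8 and 18.1 FPKM in the 2 remaining day 23 controls, 77.5 in replicate 3, and 46.3, 74.0 and 47.0 in day 63 controls. Its log2 fold change was 0.50 ± 0.46 with that library and 1.45 ± 0.26 without it (edgeR adjusted p = 0.00201). Apoc3 moved from 0.42 to 0.84 (adjusted p = 0.00161), Apom from 0.55 to 0.89 (0.0158) and Apoa5 from -0.56 to -0.84 (0.0105). Apoa2 was at 2.83, Apoa4 at 1.52 and Apob at 1.23 without it. Leaving out the other libraries in turn gave between 2 and 3 calls. With 2 control libraries on day 23, the fit rests on a spread estimated over all 4 Wistar groups.

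**Figure D3:**
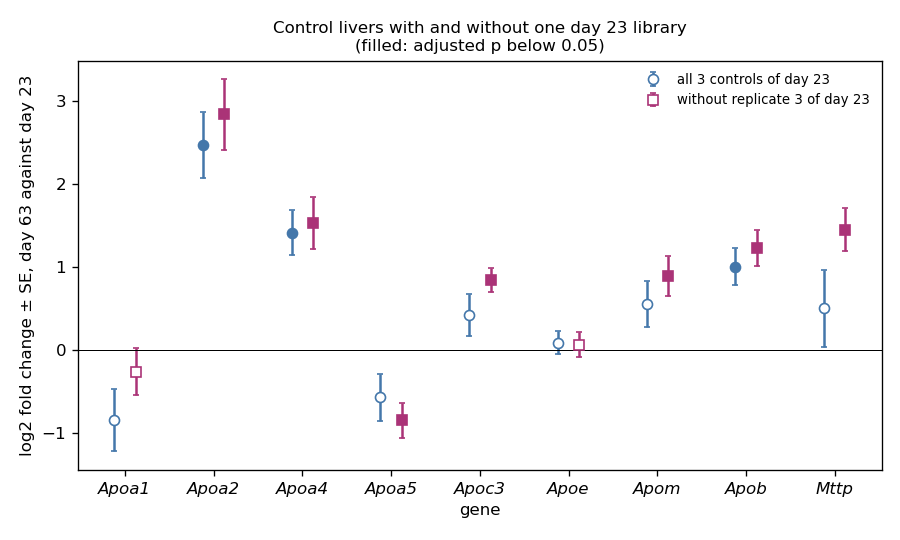
Log2 fold change ± SE of each gene between day 63 and day 23 in control livers, with all 3 day 23 controls (circles) and without replicate 3 (squares); symbols are filled where the edgeR adjusted p was below 0.05. Mttp shows the widest gap, 0.50 with the library and 1.45 without it.

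Early weaning was followed on day 23 by lower values of several of these genes, none of which passed the test over all genes. Apoa4 and Apoc3 were the 2 genes without overlap, with every early weaned library below every control, against 4.12% of all genes not overlapping in that direction. Apoa4 had a log2 fold change of -0.88 ± 0.27 (edgeR adjusted p = 0.666) and Apoc3 of -0.78 ± 0.25 (adjusted p = 0.666). Apoa2 had -1.32 ± 0.38 (adjusted p = 0.651), with 1 early weaned library (142 FPKM) above the lowest control (138). Apoa1 had 2458, 3154 and 1910.1 FPKM against 3095, 3493 and 8223 in controls, a log2 fold change of -0.999 ± 0.37 (adjusted p = 0.770).

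The median over the 9 genes on day 23 was -0.36, beside -0.032 over all genes, and 0 of 9 were called by edgeR or DESeq2, against 0.013% of all genes by edgeR and 0.738% by DESeq2. At an unadjusted p below 0.05, 4 of 9 were lower, and 956 of all genes passed in either direction. Without control replicate 3 the values were -0.77 for Apoa4, -0.36 for Apoc3, -0.95 for Apoa2 and -0.41 for Apoa1. Apoa5 went from -0.24 to -0.51, Mttp from -0.36 to 0.58 and Apom from -0.10 to 0.23, whereas Mttp and Apom kept their sign without any other single library of day 23.

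The summed FPKM of hepatocyte markers differed in the same libraries, while the single markers went both ways. The summed FPKM of 9 such markers was 54900, 65039 and 57131 in early weaned rats and 73486, 75297 and 113825 in controls of day 23, so every early weaned library lay below every control, replicate 3 or not. By edgeR 5 of the 9 were higher and 4 lower, with a median of 0.015, and none was called. Among the lower ones, Alb had a log2 fold change of -0.77 (unadjusted p = 0.00349; adjusted p = 0.580) and Ttr of -1.04 (unadjusted p = 0.00601; adjusted p = 0.657). The part of these markers in the day 23 values of the 9 genes was not tested.

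On day 63 no gene separated the weaning groups. The log2 fold changes ran from -0.34 for Apoa5 to 0.30 for Apoa4, the median was 0.051, and the libraries of both groups overlapped for all 9 genes, where 18.6% of all genes did not overlap. By edgeR 0 of 9 were called, against 0% of all genes, and 0 passed an unadjusted p of 0.05. DESeq2 also called 0 of the 9, against 0.613% of all genes. Apob and Apoe, with log2 fold changes of 0.078 and 0.067, had the opposite sign on the FPKM scale, as did Apom (0.051) on the TPM scale, in which each library's FPKM are set to the same sum.

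Whether the early weaning effect differed between the ages was tested by an interaction term. The difference, day 63 minus day 23, was 1.18 ± 0.38 for Apoa4 (unadjusted p = 0.00997) and 1.01 ± 0.35 for Apoc3 (unadjusted p = 0.0156) on the log2 scale. Both had an adjusted p of 1.00 over all genes, and 0 of 9 genes were called, against 0.00649% of all genes. At an unadjusted p below 0.05, 727 of all genes passed. DESeq2 called 0 of the 9 for this term, against 0.3% of all genes. Without day 23 control replicate 3 the difference was 1.07 for Apoa4 (edgeR adjusted p = 0.553) and 0.59 for Apoc3 (0.527).

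In Sprague Dawley rats of day 211, all 9 genes had lower edgeR values in early weaned rats than in controls, though none passed the test over all genes by edgeR. The median log2 fold change was -0.57, beside 0.023 over all genes. Apoa4, Apoa5, Apoc3 and Apoe were lower in every early weaned library than in every control, 4 of 9 genes, against 4.24% of all genes not overlapping in that direction. By edgeR 0 of 9 were called, against 0.719% of all genes, and 7 of 9 had an unadjusted p below 0.05, as did 2591 of all genes. DESeq2 called 5 of 9 (Apoa5, Apoe, Apoa4, Apoa2 and Apom), against 7.49% of all genes.

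Apoa5 had 628, 660.2 and 637 FPKM in controls and 435, 492 and 464 in early weaned rats. The controls lay close together and every early weaned library was below them. The log2 fold change was -0.68 ± 0.16 (edgeR adjusted p = 0.0757; DESeq2 adjusted p = 0.00191). Apoe had 11658, 14137 and 12002 FPKM in controls and 9679, 9246 and 8514 in early weaned rats. Its log2 fold change was -0.68 ± 0.17 (edgeR adjusted p = 0.0883; DESeq2 adjusted p = 0.00107), and its groups did not overlap.

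Apoa4 had 937, 1047 and 823 FPKM in controls and 401, 612 and 764 in early weaned rats, a log2 fold change of -0.87 ± 0.25 (edgeR adjusted p = 0.112; DESeq2 adjusted p = 0.0143). Apoc3 had 5475, 5542 and 5569 FPKM in controls and 4339, 5369 and 4052 in early weaned rats (log2 fold change -0.47 ± 0.17; edgeR adjusted p = 0.206). For Apoc3, early weaned replicate 2 lay just under the controls and the other 2 well below. Without that library edgeR called Apoc3 (adjusted p = 0.0406) and Apoa5 (adjusted p = 0.0366), 2 of 9 genes against 3.45% of all genes.

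Apoa2 had 1522, 2236 and 2900.0 FPKM in controls and 1569, 1376 and 1647 in early weaned rats (log2 fold change -0.76 ± 0.23; edgeR adjusted p = 0.137), and Apom had -0.57 ± 0.17 (adjusted p = 0.131). Both overlapped through the lowest control. Apob had -0.35 ± 0.21 (adjusted p = 0.462). Apoa1, at 3021, 4896 and 6014 FPKM in controls and 5284, 3072 and 6869.6 in early weaned rats, had a log2 fold change of -0.11 ± 0.31 (adjusted p = 0.908) with the sign reversed to 0.11 on the FPKM scale and 0.19 on the TPM scale. Mttp had -0.29 ± 0.12 (adjusted p = 0.258) and 0.0060 on the TPM scale.

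The scale matters for this comparison. The edgeR values are relative to factors of the trimmed mean of M-values (TMM), a scaling that sets most genes level, and these factors were 1.02 to 1.13 in early weaned rats and 0.896 to 0.977 in controls. On log2(FPKM + 1) the median over all genes was itself 0.17 and that of the 9 genes -0.34, a distance of -0.51, against -0.60 on the TMM scale.

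Other measured groups of genes moved in the same libraries. The summed FPKM of 16 clock genes was 224 to 323 in controls, 112 to 158 in early weaned rats and 237 to 376 with leucine. After early weaning Clock, Tef and Hlf fell by 2.52, by 1.72 and by 2.19 on the log2 scale (edgeR adjusted p = 0.0354, 0.0357 and 0.0144) and Npas2 rose by 2.40 (0.0443). With leucine Cry2, Tef and Hlf rose, Hlf by 2.32 (adjusted p = 0.00908). The share of all genes called was 0.719% after early weaning and 0.36% with leucine. All 13 mitochondrial genome transcripts had lower log2 values in early weaned rats, with a median of -0.51, and 8 of 9 hepatocyte markers did, with a median of -0.33. The hepatocyte marker sums themselves, 72104 to 77308 FPKM in controls and 69869 to 78758 in early weaned rats, overlapped.

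Markers of other cells differed in these libraries too, with none called. All 6 cholangiocyte markers had higher log2 values in early weaned rats than in controls, with a median of 0.50, and 1 had an unadjusted p below 0.05. Their summed FPKM was 16.1 to 30.6 in early weaned rats, above both the controls at 8.26 to 13.5 and the leucine group at 10.1 to 15.5. The single markers did not follow the sums in the leucine group. By edgeR 2 were higher and 4 lower with leucine than without it (median -0.037), and all 6 were higher than in controls (median 0.57). All 5 red blood cell genes were higher in early weaned rats, with a median of 0.59, and sums of 1214 to 3166 FPKM overlapped the 700.4 to 1794 of controls. Of 10 lymphocyte and neutrophil markers 8 were higher, with a median of 0.43 and sums of 9.31 to 18.4 against 8.19 to 10.7 FPKM. With leucine all 11 Kupffer cell and macrophage markers (median 0.22), all 7 sinusoidal endothelial markers (0.36) and all 5 red blood cell genes (0.53) were higher than without it. So were all 13 mitochondrial genome transcripts (median 0.25), 6 of 9 hepatocyte markers (0.26) and 7 of 8 stellate cell markers (0.25). Of the lymphocyte and neutrophil markers 3 were higher and 7 lower with leucine (median -0.38). The part of these groups of genes in the values of the 9 genes was not tested.

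Leucine given to early weaned rats went with higher values of Apoa4 and Apoa2. Apoa4 had 971, 814 and 1157 FPKM with leucine, all above the early weaned libraries at 401, 612 and 764 (log2 fold change 0.88 ± 0.25; edgeR adjusted p = 0.143). Apoa2 had 2582, 1874 and 2404 FPKM with leucine, all above the early weaned libraries at 1569, 1376 and 1647 (log2 fold change 0.74 ± 0.23; adjusted p = 0.183). These were the 2 genes of 9 without overlap, against 5.07% of all genes not overlapping in that direction. By edgeR 0 of 9 were called, against 0.36% of all genes, and 2 of 9 had an unadjusted p below 0.05, as did 1964 of all genes. DESeq2 called both (adjusted p = 0.0149 for Apoa4 and 0.0428 for Apoa2), against 5.28% of all genes.

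The remaining 7 genes had log2 fold changes with leucine from -0.27 for Apoa1 to 0.36 for Apoe. The median over the 9 genes was 0.28, beside -0.0022 over all genes. On log2(FPKM + 1) the median over all genes was -0.14 and that of the 9 genes 0.12, and Apob, at 0.14 by edgeR, was at -0.0066. The early weaned libraries serve in this comparison and in that with controls, so the 2 sets of values are not independent. Apoa5 was -0.68 in the one and -0.15 in the other, Apoa4 -0.87 and 0.88, Apoa2 -0.76 and 0.74, and Apoe -0.68 and 0.36.

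Against controls, early weaned rats given leucine differed most in Apoa5. Its 449, 342 and 337 FPKM with leucine lay below all 3 controls, with a log2 fold change of -0.83 ± 0.16 (unadjusted p = 0.000401; edgeR adjusted p = 0.239; DESeq2 adjusted p = 0.000282). Apoe was the other gene without overlap, at 10810.3, 9424 and 11319 FPKM against 11658, 14137 and 12002 (log2 fold change -0.32 ± 0.17; edgeR adjusted p = 0.524), and 6.39% of all genes did not overlap in that direction. By edgeR 0 of 9 were called, against 0.0133% of all genes, with 1 of 9 and 1617 of all genes at an unadjusted p below 0.05. DESeq2 called 1 of 9, against 1.62% of all genes. Apoa4 and Apoa2 had log2 fold changes of 0.011 ± 0.24 and -0.017 ± 0.23 (0.079 for Apoa2 on the FPKM scale).

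Genes that act with these apolipoproteins were counted from lists. Between the ages in controls, 7 of 13 other apolipoprotein and lipoprotein-carried protein genes passed the test, 5 higher and 2 lower, against 17.6% of all genes tested. Pon1, the paraoxonase of high density lipoprotein, rose by 0.82 (edgeR adjusted p = 0.00765) on the log2 scale, Clu (clusterin, or apolipoprotein J) by 0.91, Apon by 1.10, Apol9a by 3.48 and Apol11a by 1.74. Apoc4, whose gene neighbours Apoe, fell by 0.87 (adjusted p = 0.00846), and Apoo, which encodes a protein of the mitochondrial inner membrane, fell by 1.03. The median over the 13 was 0.59.

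In early weaned rats the same list gave 5 higher and 2 lower, against 27% of all genes tested: Apoc2, the cofactor of lipoprotein lipase, rose by 0.73 (edgeR adjusted p = 0.0267), as did Pon1, Clu, Apon and Apol9a, and Apoc4 and Apoo fell. Of 26 VLDL assembly genes, 3 were higher and 2 lower in controls, and 4 higher and 4 lower in early weaned rats, beside 17.6% and 27% of all genes. Dgat2, which makes triglyceride, rose by 1.42 (adjusted p = 0.0119) in controls and 1.57 (0.00538) in early weaned rats, while Dgat1, which catalyses the same step, fell by 0.90 (0.00457) and 1.03 (0.00179). Lpcat3, a phospholipid remodelling enzyme, rose and Erlin2 fell in both, Sec24d rose in controls, and Ces1d and Pla2g12b rose and Sort1 and Tor1aip1 fell in early weaned rats.

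Of 21 receptor, lipase and remodelling genes, 3 were higher and 2 lower between the ages in controls, and 8 higher and 3 lower in early weaned rats, beside 17.6% and 27% of all genes. Lipc, the hepatic lipase gene, rose by 1.09 (edgeR adjusted p = 0.0166) and 1.74 (0.00191), and Lpl, the lipoprotein lipase gene, fell by 1.83 (0.00912) in controls and fell by 3.08 (0.000886) in early weaned rats. Lcat, which esterifies cholesterol on high density lipoprotein, and Lmf1, a lipase maturation factor, rose and Stab1 fell in both. Lrp1, Sdc1, Angptl4, Angptl8 and Abca1 rose and Mylip fell in early weaned rats.

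Of 25 transcription factor genes, 3 were higher and 5 lower in controls, and 6 higher and 4 lower in early weaned rats, beside 17.6% and 27% of all genes. Hnf4a, a nuclear receptor known to act at apolipoprotein promoters, rose by 0.90 (edgeR adjusted p = 0.00981) and 0.75 (0.0120). Srebf1 rose and Nr5a2, Ppargc1a, Ppargc1b and Rora fell in both, Rxra rose and Tfeb fell in controls, and Foxa2, Cebpa, Nr1h3 and Usf1 rose in early weaned rats. Of the 3 Apob editing genes none passed between ages, with Rbm47 at 0.99 (adjusted p = 0.0545) and Apobec1 at 0.37 (0.353) in controls, and at 0.81 (0.0782) and 0.48 (0.208) in early weaned rats.

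The control counts of these lists also rest on day 23 replicate 3. Without it, and with 37.9% of all genes called, the 13 other apolipoprotein genes gave 7 higher and 2 lower, with Apoc2 at 0.62 and Apobr at 1.72 added. Of 27 VLDL assembly genes then tested, 8 were called higher and 4 lower, of 21 receptor, lipase and remodelling genes 6 higher and 3 lower, and of 25 transcription factor genes 6 higher and 6 lower. The genes of these lists that were called in controls with the library were also called without it. Rbm47 passed at 1.18 (edgeR adjusted p = 0.0244).

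Markers of other liver cells also moved with age. Of the sinusoidal endothelial markers Lyve1 fell by 0.89 in controls and fell by 1.61 in early weaned rats on the log2 scale, and the summed FPKM of 7 such markers was 89.8 to 101 in day 23 controls and 50.2 to 83.5 in day 63 controls. Of the 7, 6 were lower in controls (median -0.54) and all 7 in early weaned rats (median -0.84), where Stab2 fell by 1.52. For 9 hepatocyte markers, 2 were called higher and 1 lower in controls, and 5 higher and 1 lower in early weaned rats. Of all genes, 17.6% were called in controls and 27% in early weaned rats. The hepatocyte sum in early weaned rats went from 54900 to 65039 FPKM on day 23 to 84091 to 91176 on day 63. Of 10 lymphocyte and neutrophil markers, 9 were higher on day 63 in controls (median 2.38), with Ptprc, Cd3e, Cd8a and Nkg7 called, and 7 in early weaned rats (median 0.89), with Cd8a among those called. Their summed FPKM was 3.64 to 9.18 in day 23 controls and 6.43 to 17.3 in day 63 controls.

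The stellate cell marker Dcn fell by 1.90 in controls and fell by 2.06 in early weaned rats, where Rgs5 rose by 1.37. Of 8 stellate cell markers, 2 were higher and 6 lower in controls (median -0.18), and 4 higher and 4 lower in early weaned rats (median 0.061). The macrophage marker Cd163 fell by 0.80 and fell by 1.29, but the 11 Kupffer cell and macrophage markers went both ways. Of them 6 were higher and 5 lower in controls (median 0.087), and 4 higher and 7 lower in early weaned rats (median -0.072). All 6 cholangiocyte markers were lower in controls (median -0.70), and Krt19 fell by 1.11. The adipocyte marker Cidec, a lipid droplet protein gene, rose by 1.44 (edgeR adjusted p = 0.0140) and 2.25 (0.00181). Only 2 adipocyte markers were tested, and the other had a lower value on day 63 in both weaning groups. All 5 red blood cell genes were lower on day 63 in both, and Hba-a3, at 0 in early weaned rats of day 63, was called there. Without day 23 control replicate 3, all 10 lymphocyte and neutrophil markers were higher in controls, with 5 called, beside 37.9% of all genes.

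Of 16 clock genes, 6 passed between the ages in controls (Dbp and Hlf higher, Arntl, Cry1, Cry2 and Nfil3 lower) and 8 in early weaned rats (Per2, Dbp, Tef and Hlf higher, Arntl, Per1, Cry2 and Nfil3 lower). Of 13 mitochondrial genome transcripts, Mt-nd3, Mt-nd6, Mt-co2 and Mt-cyb fell in controls, and Mt-nd6 and Mt-cyb in early weaned rats. The share of all genes that passed was 17.6% in controls and 27% in early weaned rats. Without day 23 control replicate 3, where 37.9% of all genes were called, 4 clock genes were called higher and 8 lower in controls. Of the mitochondrial genome transcripts 6 were then called lower, and of the hepatocyte markers 4 higher and 1 lower. The part of these in the age values of the 9 genes was not tested.

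On day 211, 1 of 13 other apolipoprotein genes passed the test between early weaned rats and controls: Apoc4 fell by 0.94 (edgeR adjusted p = 0.0451), from 804 ± 97.4 to 487 ± 48.6 FPKM (SD, n = 3). Of all genes tested, 0.719% passed in that comparison and 0.36% with leucine against no leucine. Of 26 VLDL assembly genes, Sar1b, the small GTPase of vesicles that leave the endoplasmic reticulum, fell by 0.80 (adjusted p = 0.0405), from 122 ± 11.7 to 81.3 ± 7.13 FPKM. Dgat2 fell by 1.28 (adjusted p = 0.0444), from 169 ± 41.1 to 81.1 ± 13.7 FPKM, and with leucine it rose by 1.35 (adjusted p = 0.0492), to 186 ± 22.3 FPKM, in a comparison that shares the early weaned libraries. None of 21 receptor, lipase and remodelling genes passed in either comparison, the smallest p being that of Lcat at -0.80 (adjusted p = 0.0550) and Lsr at 0.98 (0.0753) after early weaning, and of Lsr at -1.20 (0.0551) and Mylip at 0.99 (0.0870) with leucine.

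None of 25 transcription factors passed on day 211, with Nr1d2 at -1.05 (edgeR adjusted p = 0.0753) and Nr1d1 at -1.68 (0.0851) after early weaning, and at 0.96 (0.108) and 1.59 (0.121) with leucine. Among other apolipoprotein genes with leucine, Apoc4 had 0.72 (0.0855) and Apof 1.93 (0.104), and no gene passed. The editing gene Apobec1 had 0.59 (0.247) and A1cf -0.053 (0.974) after early weaning, and Rbm47 0.49 (0.468) and Apobec1 -0.32 (0.661) with leucine.

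Genes beside the clusters were compared with the members there. Of 7 genes beside the chromosome 8 cluster, none passed on day 211. Between the ages in early weaned rats Zpr1 and Sik3 fell, by 0.77 (edgeR adjusted p = 0.0236) and 1.14 (0.0257). Of the members between them Apoa4 and Apoc3 rose, while Apoa5 had -0.67 (edgeR adjusted p = 0.0987) and Apoa1 0.022 (0.971). Of 7 genes beside Apoe, Tomm40 fell between the ages by 1.65 (adjusted p = 0.00153) in controls and 1.43 (0.00204) in early weaned rats, where Bcam also fell. Without day 23 control replicate 3, Bud13, Zpr1 and Sik3 beside the chromosome 8 cluster were called lower in controls as well, and beside Apoe also Bcl3 lower and Nectin2 higher. Cblc rose by 3.32 (adjusted p = 0.0491) after early weaning on day 211, and Nectin2 fell by 1.41 (0.0370) with leucine, both opposite in sign to Apoe. Of all genes, 17.6% were called between the ages in controls and 27% in early weaned rats. On day 211 the shares were 0.719% after early weaning and 0.36% with leucine. With leucine all 7 genes of this list beside Apoe had lower log2 values than without it, with a median of -1.38. Of them 4 had an unadjusted edgeR p below 0.05, where Apoe had 0.36 and the median over all genes was -0.0022. After early weaning on day 211, 4 of the 7 were higher and 3 lower, with a median of 0.81. Apoc4 and Apoc2, which also lie beside Apoe, were counted with the other apolipoprotein genes and had the same direction as Apoe. Their mean FPKM on day 211 was 804 and 2174 in controls, 487 and 1312 in early weaned rats, and 722 and 1995 with leucine. Whether reads were counted by strand is not stated, so reads of overlapping genes on opposite strands could not be told apart.

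In the comparisons of early weaned rats with controls on day 23 and day 63, and of leucine with controls, no gene of the lists passed the test. On day 23 the smallest p in each list belonged to Apon at 0.44 and Apoc2 at -0.28, Apobec1 at -0.59 and A1cf at -0.11, Fitm2 at -0.46 and Cideb at 0.40, Angptl4 at -2.11 and Lipc at -0.64, and Foxa2 at -1.38 and Cebpa at -0.99 (edgeR adjusted p from 0.170 for Angptl4 upward). On day 63 they were Apol11a at -0.90 and Apoh at 0.22, A1cf at 0.62 and Apobec1 at -0.48, Sort1 at -0.42 and Smlr1 at 0.36, Angptl4 and Stab1 at -0.52, and Srebf1 at 1.15 and Tfeb at 0.37. There Angptl4, which encodes an inhibitor of lipoprotein lipase, was again low at -1.48 (adjusted p = 0.505), and with leucine it was at -1.43 against controls (0.367). Beside it in that comparison stood Apol9a at -0.65 (0.237), Apof at 1.39, Fitm2 at -0.60, Lpcat3 at 0.35, Sdc1 at -0.58 and Creb3l3 at -0.56. The FPKM of Angptl4 was 31.8 ± 15.8 and 7.51 ± 1.31 in control and early weaned rats of day 23, and 53.7 ± 12.5 and 18.1 ± 5.64 in those of day 63 (SD, n = 3). On day 211 its mean was not lower in early weaned rats, at 51.9 ± 18.7, than in controls, at 39.5 ± 19.4. With leucine it was 15.1 ± 4.35.

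Across libraries the 9 genes moved in patterns that are given as a description over log2 CPM (counts scaled to library size). Over the 12 Wistar libraries, which span both ages, Apoa2 and Apoa4 had a Pearson r of 0.917, Apoa2 and Apoc3 of 0.912, and Apoa4 and Apoc3 of 0.884. Over deviations from the group means, which leave out the ages, the same pairs had an r of -0.043, 0.61 and 0.19. Apoa5 was negative with 7 of the other 8 genes over all Wistar libraries, down to -0.76 with Apoc3, and at 0.011 with Apoa1. Without the library that stood apart, these values were -0.74 with Apoc3 and 0.37 with Apoa1. Over deviations from the group means of all 12 Wistar libraries, Apoa5 was negative with every other gene but Apoe (0.14). The r with Apoc3 was -0.83 there. Over the 9 Sprague Dawley libraries, all of 1 age, Apoa5 was positive with all 8, Apoe and Apom had an r of 0.891 and Apoc3 and Apoe of 0.885. Over deviations from the Sprague Dawley group means, Apoa5 was negative with Apoa1 (-0.15) and Mttp (-0.17) and positive with the others. Over all libraries of a strain, Apoa1 had its highest r, 0.388, with Apoa2 in Sprague Dawley rats.

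**Figure D4:**
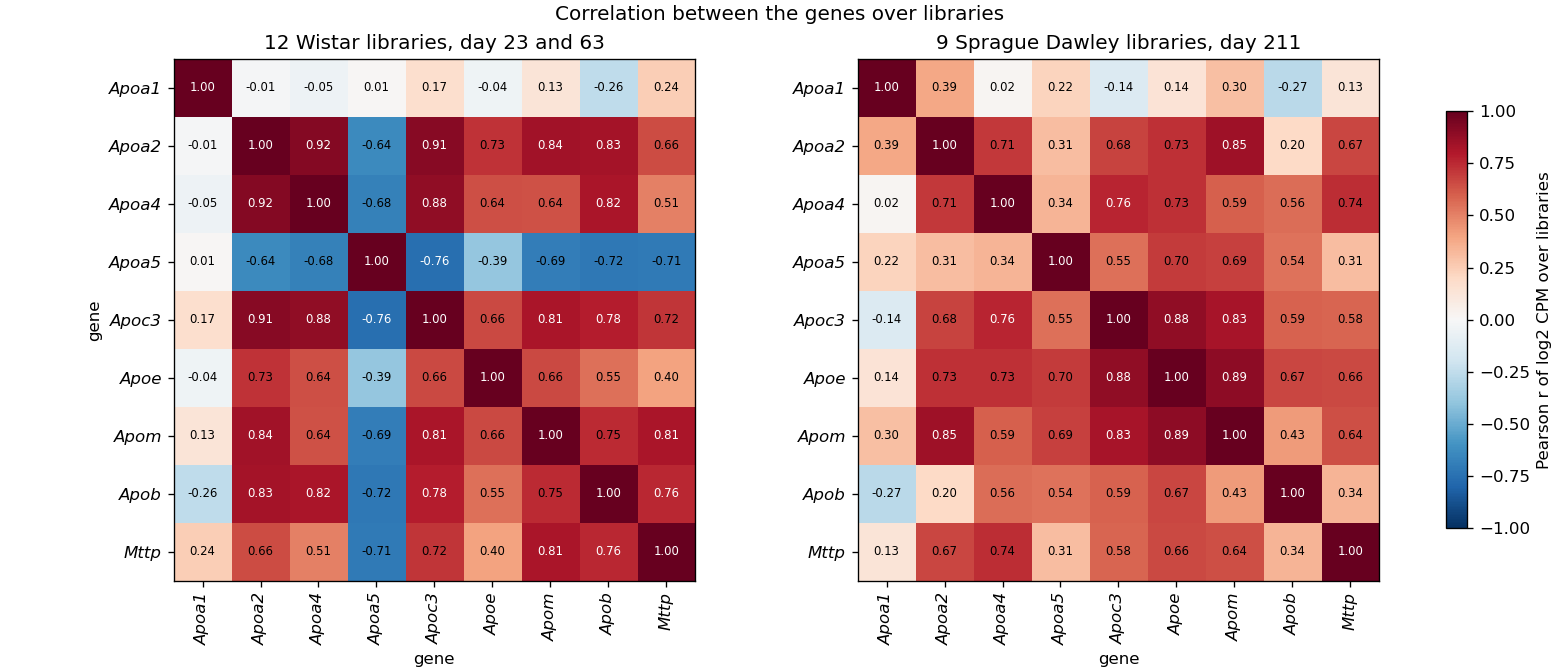
Pearson r of log2 CPM between each pair of the 9 genes over the 12 Wistar libraries (left) and the 9 Sprague Dawley libraries (right). The Apoa5 row is negative with 7 genes on the left and positive with all 8 on the right.

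Among 10253 genes compared over both sets, those with the pattern most like each gene were ranked by the smaller of the 2 correlations. For Apoc3 these were Afm (0.942), Ttr (0.934) and Rdh10 (0.931), of which Afm encodes the plasma protein afamin and Ttr transthyretin. Apom was most like Spp2 (0.932), Bola1 (0.907) and F2 (0.900), and Apoa4 most like Hsd17b2 (0.929), Lin7a (0.902) and Jade1 (0.891). Apoa2 was most like Gamt (0.919), Serpina6 (0.896) and Fdxr (0.887), and Apob most like Inhbc (0.883). Lower values were found for Apoa5 with Xpo5 (0.867), Mttp with Bscl2 (0.843), Apoe with Timm29 (0.836) and Apoa1 with Gstp1 (0.788).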

How the data were processed

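Liver RNA of 21 libraries was sequenced after preparation with a SMARTER mRNA-Seq kit, per the labels' protocols. The authors deposited 2 tables with gene counts and FPKM per library, per the file headers; no label or header names the aligner or counter. The builds listed, per the submitters' processing notes, are GRCm38 and mm10, both of mouse, while the rows carry Ensembl rat identifiers. Low counts pile up at multiples of about 4, so counts divided by 4 were an alternative. Columns were matched to libraries by name. Each table was fitted separately with edgeR 4.0.16 in R 4.3.3 (TMM, filterByExpr with a minimum count of 10, quasi-likelihood test, 1 mean per group), Benjamini-Hochberg adjusted over all genes tested, with calls at an adjusted p below 0.05; the script was tested on simulated data. The SE is the log2 fold change divided by the square root of F. Alternatives were DESeq2 1.42.0, limma 3.58.1 on log2(FPKM + 0.1), log2(FPKM + 1) and log2(TPM + 1), other filters and scaling, the replicate number as a block, and each library left out. Over genes with a mean count of at least 100, any 2 libraries had equal counts in at most 0.611%, so none was counted as a duplicate. The genes and lists were chosen with earlier results of these data known. Every member is named; of each list, the called genes are named, and where none was called, up to 2 of smallest p.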

Additional observations from a re-analysis of the deposited data

How the results depend on the processing

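Values here are log2 fold changes of the 9 genes, or medians or counts of calls over them. Of 1134 values of single genes under alternatives, 1049 kept their direction and side of the threshold, 16 passed it newly, 3 no longer passed and 66 changed sign. The calls of Apoa2, Apoa4 and Apob between the ages held with all settings that kept every library, as did Apoc3 in early weaned rats. The causes of the changes below were not tested.

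DESeq2 called 5 of the 9 genes after early weaning on day 211, 2 with leucine against no leucine and 1 with leucine against controls, where edgeR called 0. Over all genes DESeq2 called 1122, 791 and 200, and edgeR 108, 54 and 2. In early weaned rats between the ages DESeq2 also called Apoe and Apom, 6 of 9 in all.

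The median on day 23 moved from -0.36 to -0.17 with the replicate block, to -0.13 on log2(FPKM + 0.1) and on log2(FPKM + 1), and to -0.12 on log2(TPM + 1). The median on day 211 moved from -0.57 to -0.34, -0.34 and -0.26 on these 3 scales. Signs changed on the same 3 scales, in this order, for Apob (-0.015, -0.015, -0.035) and Apoe (-0.022, -0.022, -0.041) on day 63, and for Apom there on TPM (-0.0086). On day 211 they changed for Apoa1 (0.11, 0.11, 0.19) and, on TPM, for Mttp (0.0060). With leucine against no leucine Apob changed (-0.0067, -0.0066, -0.037), and against controls Apoa2 (0.079, 0.079, 0.13) and Mttp (0.012, 0.012, 0.062). Between the ages in early weaned rats Apoa1 changed (-0.084, -0.084, -0.074), and in the age difference of the weaning effect Mttp (-0.26, -0.25, -0.29).

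The correlation of deviations between libraries of the same replicate number ran from -0.0974 to 0.115, values too small to show whether the numbers pair the libraries. Replicate 3 matched its own number best in every pair of groups compared, and replicate 1 in none. With the replicate block, edgeR called 49 genes after early weaning on day 211 against 108 without it, and the signs of Apoa2 with leucine against controls (0.0087), Apoa1 between the ages in early weaned rats (-0.041) and Mttp in the age difference (-0.16) changed. The block changed no call of the 9 genes.

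With 1 library left out at a time, calls ranged from 2 to 7 between the ages in controls and from 0 to 2 after early weaning on day 211. Medians ranged from -0.71 to -0.24 on day 23, from -0.12 to 0.083 on day 63, from 0.23 to 0.89 between the ages in controls and from 0.13 to 0.46 for the age difference of the weaning effect. Ranges that crossed 0 on day 23 were those of Apob (-0.10 to 0.33), Apom (-0.27 to 0.23) and Mttp (-0.71 to 0.58). On day 63 they were Apoa1 (-0.32 to 0.027), Apoa2 (-0.45 to 0.19), Apob (-0.0067 to 0.16), Apoe (-0.00054 to 0.12), Apom (-0.12 to 0.36) and Mttp (-0.37 to 0.0062). On day 211 they were Apoa1 after early weaning (-0.36 to 0.13) and, with leucine against controls, Apoa2 (-0.25 to 0.21), Apoa4 (-0.13 to 0.14), Apob (-0.39 to 0.032) and Mttp (-0.12 to 0.026). Between the ages in early weaned rats Apoa1 ranged from -0.15 to 0.25. In the age difference Apoa5 (-0.29 to 0.17), Apob (-0.25 to 0.18), Apom (-0.18 to 0.46) and Mttp (-0.84 to 0.46) crossed 0. The biological coefficient of variation was 0.404 for Wistar rats and 0.379 for Sprague Dawley rats, and 3 libraries a group limit the precision.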
